A study of Mus musculus with 56 samples.

Results

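The genes of 10 enzymes that make or inactivate steroid hormones were followed in mouse liver (Cyp17a1, Hsd17b6, Hsd17b2, Hsd17b13, Hsd11b1, Hsd3b2, Hsd3b3, Hsd3b5, Srd5a1 and Akr1c6), out of 23813 genes measured. The 10 genes were picked by name, with their RNA levels in these same mice already known. Their responses are therefore given as a description, without a test. The first listed transcript represented each gene.

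RNA-seq was performed on liver from 12 male mice, 4 per group. All 12 mice were fed for 16 days on low iodine chow containing 0.15% PTU (propylthiouracil). PTU blocks the synthesis of thyroid hormone and renders the mice hypothyroid. Hypothyroid WT mice received vehicle, and hyperthyroid WT mice received 5 μg triiodothyronine (T3) by injection on the last 4 to 6 days of the diet. The third group was hypothyroid L-NCOR1ΔID mice, which received vehicle and whose liver expresses a form of the nuclear receptor corepressor NCOR1 without the domains that contact the thyroid hormone receptor. The promoter that drives the Cre recombinase in these mice is not given in the sources used here. By the study's own list the L-NCOR1ΔID mice were on average younger than the WT mice. They were kept on a mixed strain background, and WT littermates of another mutant line on one that includes NIH Black Swiss. The strain background of the WT mice used here is not given, so age, strain background and genotype cannot be told apart. The labels do not say more of how the replicates were obtained than that they are separate samples of liver, so each error is the spread between these samples.

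Steroid hormones are made from cholesterol in the adrenal cortex and gonads, and the liver is the main site where they are converted, reduced and conjugated for excretion. CYP17A1 hydroxylates and cleaves the side chain of pregnane steroids on the way to androgens. The HSD3B enzymes act at carbon 3 of the steroid ring, most HSD17B enzymes at carbon 17, HSD11B1 at carbon 11, and the reductases SRD5A1 and AKR1C6 on double bonds or ketone groups. In rodents many of these genes differ in level between male and female liver, a pattern that follows the pituitary secretion of growth hormone. In the classical model the thyroid hormone receptor binds DNA with or without hormone, and T3 makes it exchange corepressors such as NCOR1 for coactivators. The study proposes that this model accounts for only part of the enhancer activation by T3 in liver.

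Depth was estimated as the total that turned the most low values into whole reads. Only 209 to 313 of 607 to 690 low values per library came out whole at the best total, beside 11 to 16 at a typical one, so the depths and read numbers are approximate. The estimate was 29.2 to 38.3 M reads per library in hypothyroid WT, 21.3 to 26.1 in hyperthyroid WT and 38.1 to 42.7 in L-NCOR1ΔID mice. RPKM, the reads per kilobase of transcript scaled to library size, is the unit of every level below, so levels can be set side by side between genes as RNA per length. By these estimates the value of the 10 enzymes with the fewest reads, Hsd17b6 in hyperthyroid WT replicate 1, rested on about 23 reads, and that with the most, Akr1c6, on about 46894. Dio1, a deiodinase gene that T3 induces, was 459 to 641 RPKM in hyperthyroid WT and 0.567 to 20.9 in L-NCOR1ΔID mice. In hypothyroid WT, Dio1 was 0.719 to 8.98 RPKM in 3 libraries and 57.7 in replicate 3. Ncor1 was 12.1 to 13.9 RPKM in L-NCOR1ΔID and 14.1 to 15.6 in hypothyroid WT mice, and a value over the whole transcript does not show which exons are missing. In all 12 libraries Xist was at most 0.033 RPKM and Ddx3y at least 14.1 RPKM, as in male tissue. The hepatocyte markers Alb, Ttr, Apoa1 and Serpina1c summed to 18107 to 48106 RPKM. In whole liver, fewer cells of a type and less RNA per cell cannot be told apart. The 8 markers of adrenal cortex and testis summed to 2.69 to 9.97 RPKM. Of these, Cyp11a1, the enzyme that starts steroid synthesis from cholesterol, was at most 0.028 RPKM and Cyp11b1 at 0 in all 12 libraries, while Cyp21a1 was 1.10 to 7.497 RPKM.

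Where the genes lie and what precedes them was examined first, because several are close relatives. Hsd3b5, Hsd3b2 and Hsd3b3 lie in a row on chromosome 3, with 78945 bp between the GENCODE M1 records of Hsd3b5 and Hsd3b2 and 16899 bp between those of Hsd3b2 and Hsd3b3. Their coding sequences were 95.1% identical for Hsd3b2 and Hsd3b3, 80.7% for Hsd3b2 and Hsd3b5, and 79.9% for Hsd3b3 and Hsd3b5. The start site of transcription (TSS) was located in mm9, the genome build of the files, by an exact match of RefSeq promoter sequences (table of GRCm38.p6), which was possible for 8 of the 10 genes. The 250 bases before the TSS of the Hsd3b genes are shown to let the 3 neighbours be compared, and those of Hsd17b6 and Hsd17b13 because these genes had, respectively, the largest fall with T3 and the only match to AGGTCA, the core site of the thyroid hormone receptor. Capitals mark AGGTCA on either strand. All 5 run 5′ to 3′ on the minus strand and end 1 base before the RefSeq start.
Hsd3b2, chr3:98528467-98528716: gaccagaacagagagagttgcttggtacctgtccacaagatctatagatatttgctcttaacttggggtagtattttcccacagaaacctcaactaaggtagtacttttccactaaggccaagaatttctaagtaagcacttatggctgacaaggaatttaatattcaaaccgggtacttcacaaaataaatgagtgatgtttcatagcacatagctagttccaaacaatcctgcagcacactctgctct
Hsd3b3, chr3:98567052-98567301: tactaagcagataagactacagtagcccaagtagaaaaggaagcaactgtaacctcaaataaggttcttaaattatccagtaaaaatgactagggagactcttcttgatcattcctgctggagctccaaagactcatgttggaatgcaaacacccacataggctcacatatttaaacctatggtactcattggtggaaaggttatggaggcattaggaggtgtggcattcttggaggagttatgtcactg
Hsd3b5, chr3:98449458-98449707: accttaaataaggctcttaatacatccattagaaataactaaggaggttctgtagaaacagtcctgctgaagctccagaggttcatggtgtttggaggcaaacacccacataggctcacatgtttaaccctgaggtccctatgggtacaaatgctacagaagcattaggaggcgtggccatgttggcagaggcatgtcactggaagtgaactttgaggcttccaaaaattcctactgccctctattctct
Hsd17b6, chr10:127444668-127444917: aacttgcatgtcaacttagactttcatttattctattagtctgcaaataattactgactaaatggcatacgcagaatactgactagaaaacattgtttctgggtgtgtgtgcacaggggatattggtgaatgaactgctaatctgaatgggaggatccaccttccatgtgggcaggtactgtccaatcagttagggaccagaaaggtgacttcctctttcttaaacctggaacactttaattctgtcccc
Hsd17b13, chr5:104406408-104406657: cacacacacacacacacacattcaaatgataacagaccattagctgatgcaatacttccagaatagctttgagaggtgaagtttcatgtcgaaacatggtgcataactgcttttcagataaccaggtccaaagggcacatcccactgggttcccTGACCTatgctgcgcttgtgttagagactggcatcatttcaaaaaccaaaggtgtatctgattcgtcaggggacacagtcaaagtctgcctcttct

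The sequences before Hsd3b3 and Hsd3b5 were related but shifted. A stretch of 202 alignment columns was 74.8% identical, and it ended 1 base before the start in Hsd3b3 and 49 bases before it in Hsd3b5. Hsd3b2 had no such match to Hsd3b3, with a best stretch of 38 columns at 73.7% identity, although their coding sequences were the closest of the 3. RefSeq gives Hsd3b3 another start downstream, and the 250 bases before it were 99.6% identical over 249 columns to those shown. AGGTCA was found before 1 of the 10 starts of the 8 genes, 96 bases before the TSS of Hsd17b13 as TGACCT, and 14.0% of all 32851 promoters of this length held it. AGGTCA repeated in the same direction after 4 bases, and TTCNNNGAA, which STAT factors bind, were found before none of them, against 0.0152% and 7.02% of all promoters. TATAAA was found before Akr1c6 only (12.4% of all promoters). Both strands were searched for each motif, the repeat contains AGGTCA, and a lack of these letters in 250 bases says nothing of binding elsewhere.

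Cyp17a1 rose from near absence with T3 and had the largest rise of the set. In hypothyroid WT mice its level was 0.748, 0.491, 2.45 and 1.58 RPKM, and in hyperthyroid WT mice it was 315, 179.6, 119.6 and 235 RPKM. The groups were separated by a wide gap, between 2.45 and 119.6 RPKM. The log2 fold change was 7.37 ± 0.46 (SE, n = 4 per group, 95% interval 6.34 to 8.40). In L-NCOR1ΔID mice without T3 the level was 2.41, 32.4, 7.70 and 14.3 RPKM. All but replicate 1 of these libraries were above every hypothyroid WT library, and all were below every hyperthyroid one. The log2 difference from hypothyroid WT was 3.01 ± 0.75 (95% interval 1.33 to 4.70), and T3-treated WT mice were higher than the mutant by 4.35 (95% interval 2.88 to 5.82).

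The 3 Hsd3b genes were all lower in hyperthyroid than in hypothyroid WT mice, without overlap between the groups. HSD3B2 and HSD3B3 belong to the dehydrogenase and isomerase type that forms 4-ene ketosteroids, whereas mouse HSD3B5 is a ketosteroid reductase known as a male-specific enzyme of the liver. Hsd3b3 was the most abundant of them, at 96.4, 111, 131 and 136 RPKM in hypothyroid and 18.7, 19.4, 26.3 and 34.1 in hyperthyroid WT mice. This was a log2 fold change of -2.29 ± 0.19 (SE, n = 4 per group). Hsd3b2 was 21.6, 25.8, 22.1 and 16.9 RPKM in hypothyroid and 4.85, 7.995, 13.7 and 4.79 in hyperthyroid WT mice, a log2 fold change of -1.57 ± 0.31. Replicate 3 of the hyperthyroid mice had the level of Hsd3b2 nearest to the hypothyroid group.

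Hsd3b5 was 63.7, 101.6, 107.9 and 67.1 RPKM in hypothyroid WT and 12.2, 19.7, 53.6 and 38.3 in hyperthyroid WT mice. Its log2 fold change was -1.64 ± 0.42 (95% interval -2.59 to -0.69), about that of Hsd3b2, but with a wider spread between the hyperthyroid libraries. Without hyperthyroid replicate 3 the change was -1.98 and passed the thresholds given below. Reads that lie in stretches shared with another Hsd3b gene could be assigned to the wrong gene or lost. A transcript of another gene held 27.1% of all 50-base stretches of Hsd3b3, 18.1% of those of Hsd3b5 and 14.0% of those of Hsd3b2. The other Hsd3b genes were near or at 0 in these livers (Hsd3b6 at most 0.076 RPKM, Hsd3b1 at most 0.042, Hsd3b4 at 0 in all libraries).

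In L-NCOR1ΔID mice Hsd3b3 was 86.2, 90.9, 121 and 117 RPKM, a log2 difference from hypothyroid WT of -0.20 ± 0.15 (95% interval -0.53 to 0.14). Hsd3b2 was 14.9, 13.5, 14.8 and 21.7 RPKM, a difference of -0.42 ± 0.17. Hsd3b5 was 9.87, 1.29, 68.0 and 107.4 RPKM, an 83.2-fold range within 1 group. Replicates 1 and 2 were below every WT library of either group, while replicates 3 and 4 were within the range of hypothyroid WT. The mean log2 difference of Hsd3b5, -2.21 ± 1.18 (95% interval -4.88 to 0.45), rested on replicates 1 and 2 and was 0.047 without them.

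**Figure D1:**
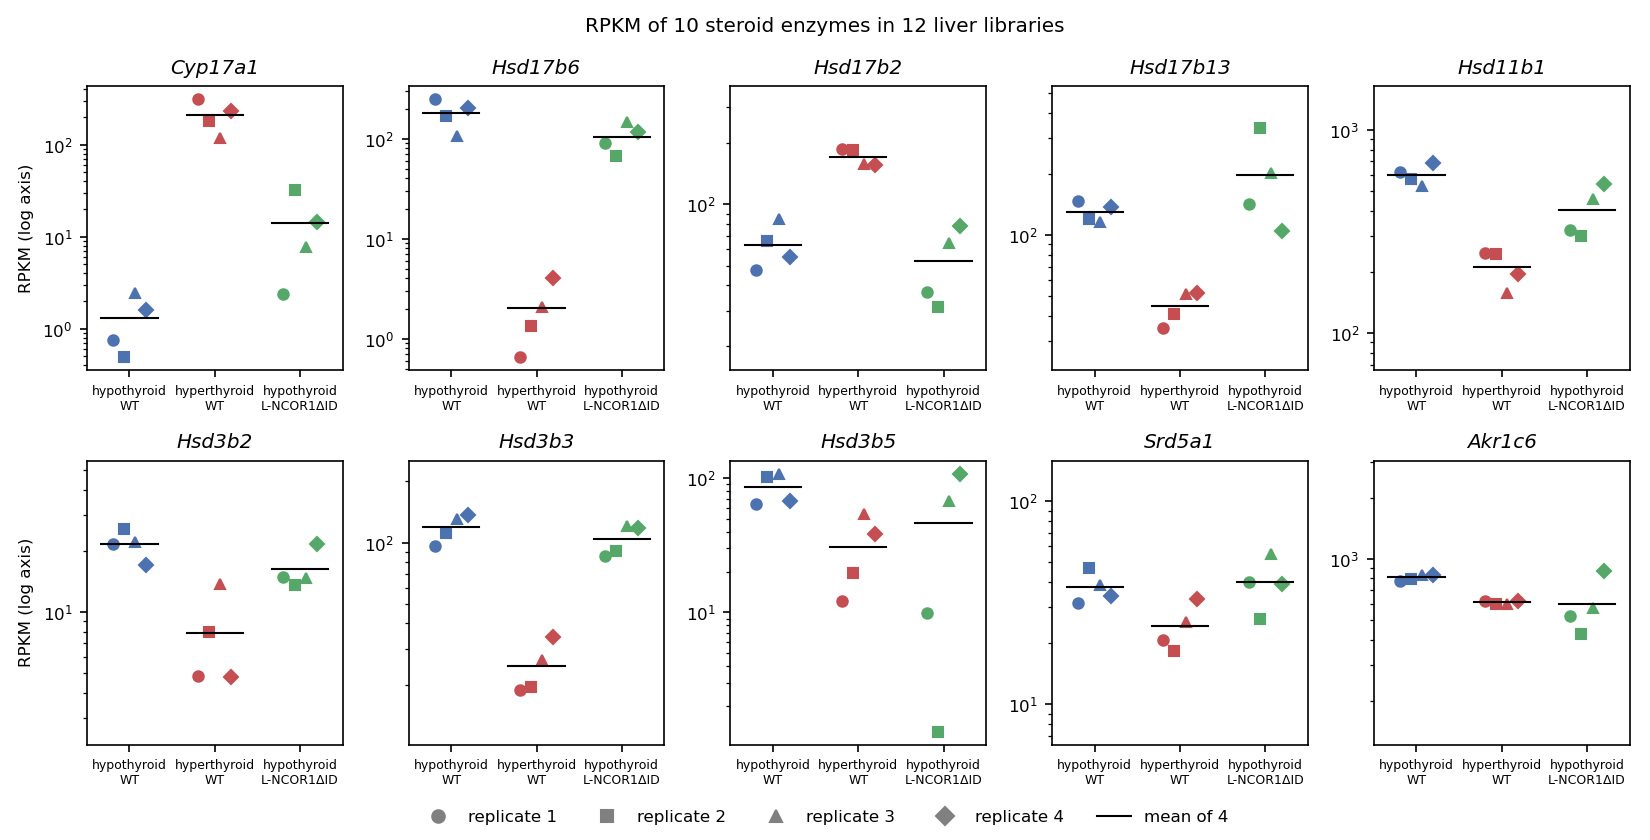
RPKM (log axis) of each enzyme gene in each library, by group; symbols mark the replicate and black lines the mean of 4 libraries. Cyp17a1 rises from 0.491 to 2.45 RPKM in hypothyroid WT to 119.6 to 315 in hyperthyroid WT, Hsd17b6 falls from 106.5 to 249 to 0.655 to 4.04, and the L-NCOR1ΔID libraries overlap hypothyroid WT in all 10 panels.

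Among the 17β-hydroxysteroid dehydrogenases, Hsd17b6 had the largest fall with T3 in the set. Its product oxidises androstanediol, a breakdown product of dihydrotestosterone, and retinoids. The level was 249, 168, 106.5 and 201 RPKM in hypothyroid WT and 0.655, 1.34, 2.06 and 4.04 in hyperthyroid WT mice. Each hyperthyroid library was far below each hypothyroid one, by a ratio of means of 89.6 and a log2 fold change of -6.62 ± 0.47 (SE, n = 4 per group, 95% interval -7.68 to -5.56). In L-NCOR1ΔID mice it was 91.1, 67.6, 145 and 116 RPKM. These levels were lower than in 3 of the 4 hypothyroid WT libraries, with overlap, and the log2 difference was -0.78 ± 0.29 (95% interval -1.44 to -0.12). The T3-treated WT mice were 5.84 lower than the mutant on the log2 scale (95% interval -6.80 to -4.88).

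Hsd17b2, which oxidises estradiol and testosterone to less active ketones, was the other gene that was higher with T3. It was 47.3, 66.1, 84.8 and 55.03 RPKM in hypothyroid and 187, 186, 158 and 156 in hyperthyroid WT mice. The hyperthyroid libraries lay close together, and the log2 fold change was 1.47 ± 0.17 (95% interval 1.09 to 1.84). In L-NCOR1ΔID mice the level was 37.0, 31.2, 64.7 and 78.4 RPKM, a log2 difference from hypothyroid WT of -0.33 ± 0.30, opposite in sign to T3 and with an interval that includes 0 (-1.01 to 0.35).

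Hsd17b13 encodes a protein of hepatocyte lipid droplets with retinol dehydrogenase activity. Its level was 148, 119.6, 116 and 137 RPKM in hypothyroid and 34.8, 41.0, 51.3 and 52.1 in hyperthyroid WT mice, a log2 fold change of -1.55 ± 0.14. In L-NCOR1ΔID mice it was 142, 338, 202 and 105 RPKM, a difference of 0.47 ± 0.31 (95% interval -0.23 to 1.16). Replicates 2 and 3 of the mutant were above every WT library, replicate 4 was below every hypothyroid WT library, and the difference fell to 0.16 without replicate 2.

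Hsd11b1, which regenerates active glucocorticoid from its inert ketone in the liver, was among the most abundant transcripts of the set. It was 620, 571, 529.8 and 687 RPKM in hypothyroid and 248, 245, 158 and 196 in hyperthyroid WT mice. Each hyperthyroid level was below each hypothyroid one, with a log2 fold change of -1.53 ± 0.16 (SE, n = 4 per group). In L-NCOR1ΔID mice the level was 323, 299.6, 456 and 539.9 RPKM, which lay between the WT groups in 3 libraries and within the hypothyroid range in replicate 4. The difference from hypothyroid WT was -0.61 ± 0.19 (95% interval -1.04 to -0.18), and that from hyperthyroid WT, taken as T3 WT minus mutant, was -0.92 (95% interval -1.35 to -0.48).

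Of the 10 enzymes, Akr1c6 and Srd5a1 had the smallest differences with T3. Akr1c6, which encodes a hepatic 17β-hydroxysteroid dehydrogenase of the aldo-keto reductase family, had the highest mean level of the 10 genes in each group. It was 779, 798, 830.3 and 832 RPKM in hypothyroid and 619, 602, 600.3 and 619 in hyperthyroid WT mice. The replicates of each WT group differed by at most 1.07-fold, so that the groups were apart at a log2 fold change of only -0.41 ± 0.08. In L-NCOR1ΔID mice Akr1c6 was 524, 425, 573 and 867 RPKM, a 2.04-fold range and a log2 difference of -0.49 ± 0.19. T3-treated WT minus mutant mice gave a log2 difference of 0.08, with a 95% interval from -0.29 to 0.45. Srd5a1, a steroid 5α-reductase gene, was 31.4, 47.1, 38.6 and 34.3 RPKM in hypothyroid, 20.7, 18.2, 25.4 and 33.0 in hyperthyroid WT and 40.0, 26.3, 55.03 and 39.0 in L-NCOR1ΔID mice. It was the only one of the 10 genes whose WT groups overlapped, and its log2 fold change with T3 was -0.65 ± 0.19 (95% interval -1.08 to -0.23). The annotated record of Nsun2 on the opposite strand spans Srd5a1, and the counting is not stated to use strand, so reads of the pair may not be separated.

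**Figure D2:**
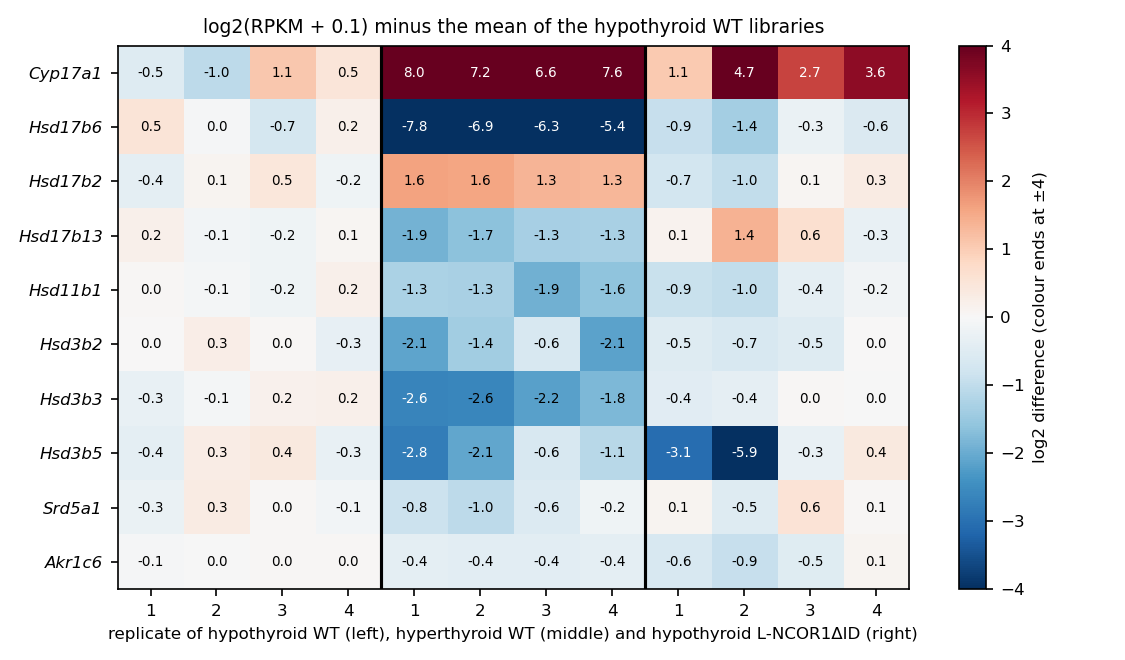
log2(RPKM + 0.1) of each enzyme in each library minus its mean in hypothyroid WT, for replicates 1 to 4 of hypothyroid WT (left), hyperthyroid WT (middle) and hypothyroid L-NCOR1ΔID (right). The 4 hyperthyroid libraries share the sign of change in every row, whereas the mutant libraries do so only for Cyp17a1, Hsd17b6 and Hsd11b1. In the other rows the mutant libraries differ in sign, with Hsd3b5 at -5.90 in replicate 2 and 0.38 in replicate 4.

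To set these values against the rest of the liver transcriptome, each comparison was fitted over all genes with limma. A gene was called for T3 when its adjusted p was below 0.01 and its log2 fold change exceeded 1 in either direction. Of the 10 enzymes, 2 were called higher, where 8.28% of 13941 genes tested were, and 5 were called lower, where 3.47% were. The groups did not overlap for 9 of the 10, against 46.6% of all genes tested. Since the genes were selected on this comparison, nothing is read from these counts. All 10 passed the filter on low values. The genes called lower were Hsd17b6, Hsd3b3, Hsd3b2, Hsd17b13 and Hsd11b1, and those called higher were Cyp17a1 and Hsd17b2. Just outside the thresholds was Hsd3b5, whose fold change was past the limit, and Srd5a1 and Akr1c6 were below it in fold change. Over all genes tested, the middle log2 fold change (median) was 0.23. Relative to that median the changes were 7.13 for Cyp17a1, 1.23 for Hsd17b2 and -6.85 for Hsd17b6. The median of the 10 enzymes was -1.54.

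For L-NCOR1ΔID against WT mice, both hypothyroid, genes with an adjusted p under 0.01 were called at any fold change. None of the 10 enzymes was called by limma, where 0.725% of 13790 genes tested were called higher and 0.544% lower. An unadjusted p under 0.05 was reached by 5 of the 10 enzymes and by 20.5% of all genes tested. The mutant and hypothyroid WT libraries overlapped for all 10 enzymes, and 13.1% of all genes tested had groups that did not. The 5 with an unadjusted p under 0.05 were Cyp17a1, Hsd17b6, Hsd11b1, Akr1c6 and Hsd3b2. As the 10 genes were picked with these levels known, nothing is read from these counts either. Both comparisons use the same 4 hypothyroid WT libraries, so their estimates are not independent. The estimates of the mutant were lower than WT for 7 genes and higher for 3, with a median of -0.37 beside 0.03 over all genes. In the fit of all 12 libraries, the 95% interval of T3-treated WT minus mutant did not include 0 for 8 of the 10 genes, the exceptions being Hsd3b5 (0.57, -1.76 to 2.91) and Akr1c6. Without L-NCOR1ΔID replicate 4 the difference of Akr1c6 was 0.28 (0.032 to 0.52), which did not include 0. Of all 14017 genes in that fit, 52.4% had an interval that did not include 0. Libraries of these groups did not overlap for 6 genes, and 37.7% of 14311 genes had groups that did not.

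**Figure D3:**
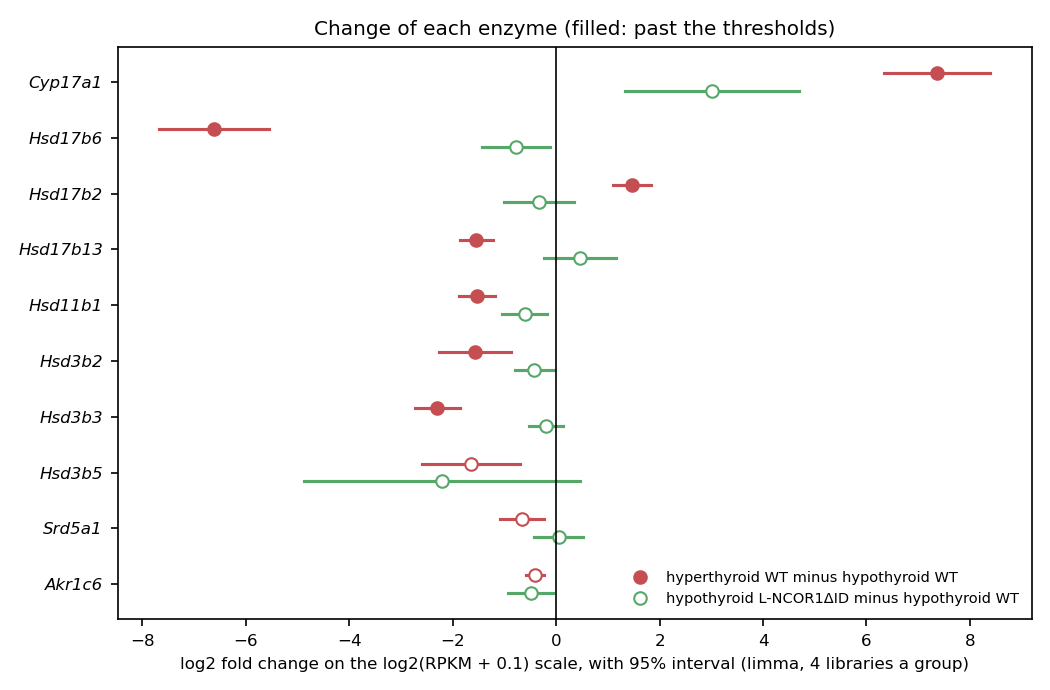
log2 fold change of each enzyme with its 95% interval for hyperthyroid against hypothyroid WT (red) and for hypothyroid L-NCOR1ΔID against hypothyroid WT mice (green), 4 libraries per group; filled points passed the thresholds. In red, Cyp17a1 (7.37) and Hsd17b6 (-6.62) lie far from 0, and all green points are open, with the widest interval for Hsd3b5 (-4.88 to 0.45).

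Over the 10 enzymes, the libraries of the mutant differed more at the median than those of the WT groups. For Hsd17b6, Hsd3b2 and Hsd3b3 the spread was wider in hyperthyroid WT than in the mutant. The median ratio of the highest to the lowest library over the 10 enzymes was 1.51 in hypothyroid WT, 1.82 in hyperthyroid WT and 2.12 in L-NCOR1ΔID mice. Replicate 2 of the mutant had the lowest level of 7 enzymes and the highest of Cyp17a1 and Hsd17b13, and replicate 4 had the highest of 5. The transporter gene Slco1a1, whose pattern over the 12 libraries was most like that of Hsd3b5 (r = 0.991, a description across libraries), was 26.4, 3.72, 92.4 and 148 RPKM in replicates 1 to 4 of the mutant. Without Hsd3b5, 11 genes known as male-biased in liver summed to 1072, 844, 1336 and 1517 RPKM in these 4 libraries and to 1776 to 2474 in hypothyroid WT. The most abundant of them were Gstp1 (mean 823 RPKM in hypothyroid WT and 491 in the mutant) and Cyp2d9 (680 and 422). Cyp4a12b (54.9 and 53.2) and Elovl3 (10.7 and 13.9) differed little, so the sum does not speak for each gene. The 14 female-biased genes other than Cyp17a1 summed to 160.3, 278, 111 and 78.6 RPKM in the mutant and to 40.2 to 108 in hypothyroid WT. Among the mutant libraries, replicate 2 had the lowest male-biased and the highest female-biased sum. The latter rested on 1 gene, Cyp2a4, at 162 RPKM in replicate 2, and without it, a choice made after seeing the data, the female-biased sums were 123, 117, 78.6 and 70.4 RPKM in replicates 1 to 4, with replicate 1 highest. The part of this in the levels of Hsd3b5 and Cyp17a1 was not tested. Replicate 3 of hypothyroid WT, the library with the highest Dio1, had the highest Cyp17a1, Hsd17b2 and Hsd3b5 of its group. It also had the lowest Hsd17b6, Hsd17b13 and Hsd11b1. Of these genes, Hsd3b5 lay opposite to its change with T3. Without this library, the log2 fold changes with T3 were 7.73 for Cyp17a1 and -6.85 for Hsd17b6.

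The other genes of the steroid pathways, 83 on lists drawn up by function or sex bias, were examined in the same fits. The lists were chosen with earlier results of these data known. Their counts and adjusted p-values are therefore a description, and no enrichment is read from them. Of the 83 genes, 80 had measurements, and of 66 tested for T3, 11 were called higher and 13 lower. For L-NCOR1ΔID mice, 3 of 64 were called higher and 1 lower. Over all genes tested, 8.28% were called higher and 3.47% lower for T3, and 0.725% and 0.544% for the mutant. The male- and female-biased lists, with 23 of the 66 genes tested for T3, held 7 of the 11 and 6 of the 13 called. They also held 2 of the 3 genes called higher in the mutant. Among the listed genes the median was -0.12 on the log2 scale for T3, beside 0.23 over all genes.

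Of the classical steroid synthesis genes, 7 of 15 were abundant enough to be tested, and 1 was called lower with T3. This was Cyb5a, the cytochrome b5 gene that assists CYP17A1 in side chain cleavage. It fell from 1171 RPKM (1065 to 1278) in hypothyroid to 454 (439 to 478) in hyperthyroid WT mice, a log2 fold change of -1.36 ± 0.10 (limma, adjusted p = 1.758e-05), while Cyp17a1 rose. Por, the reductase gene that supplies electrons to microsomal P450 enzymes, was 197 to 240.2 RPKM in hypothyroid and 145 to 219.5 in hyperthyroid WT mice and was not called. In L-NCOR1ΔID mice Por was 387, 573, 296 and 193 RPKM, again with replicate 2 highest. Cyp19a1, the aromatase gene, was at 0 in all 12 libraries.

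In the remaining 17β-HSD family, 1 of 6 genes was called higher and 1 lower with T3. Hsd17b7, a gene of cholesterol synthesis, rose from 21.3 to 52.8 RPKM (1.31 ± 0.14 as log2, adjusted p = 9.8898e-05 by limma). Hsd17b11, a relative and direct neighbour of Hsd17b13 at 12351 bp on chromosome 5, fell from 121 to 41.2 RPKM. Its log2 fold change of -1.55 ± 0.08 (limma, adjusted p = 3.9495e-06) lay beside -1.55 ± 0.14 for Hsd17b13. The coding sequences of the pair were 65.0% identical, and 0.663% of the 50-base stretches of Hsd17b13 were found in transcripts of other genes, none of them Hsd17b11.

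Among the other reductases, 2 of 9 were called lower with T3 and none higher. Akr1c14, a 3α-hydroxysteroid dehydrogenase gene, fell from 419.8 to 155 RPKM (-1.44 ± 0.09 as log2, adjusted p = 8.4168e-06 by limma), and Akr1c19 from 62.6 to 8.72 RPKM (-2.91 ± 0.26, adjusted p = 5.1106e-05). Akr1c6, of the same gene cluster on chromosome 13, had a smaller difference with T3 (-0.41) than either. Akr1c12 and Akr1c13, at -0.78 and -0.97, had adjusted p-values of 0.00011907 and 2.4744e-05 but were below the fold change limit. Srd5a2, the other 5α-reductase of steroids, was low, at 0.772 to 1.82 RPKM over all libraries, compared with 18.2 to 55.03 for Srd5a1.

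Of 8 genes of glucocorticoid handling, 1 was called. Per1, a clock gene that glucocorticoids induce, fell from 17.2 to 7.63 RPKM with T3 (log2 fold change -1.17 ± 0.10, limma adjusted p = 3.939e-05). Of the other listed targets of glucocorticoids, Tsc22d3 was lower but below the limit of fold change (-0.94 ± 0.19). Fkbp5 (0.17 ± 0.22) and Tat (0.29 ± 0.20) did not fall. Glucocorticoid action was not tested. Nr3c1, the glucocorticoid receptor gene, was 12.2 to 14.6 RPKM in hypothyroid and 20.5 to 23.1 in hyperthyroid WT mice, opposite in direction to Hsd11b1. Its log2 fold change of 0.73 ± 0.08 (adjusted p = 0.00012034) was below the limit of fold change. Hsd11b2, whose product inactivates glucocorticoid, was at most 0.070 RPKM. H6pd, which supplies the cofactor of HSD11B1, had a log2 fold change of -0.26 ± 0.12 (adjusted p = 0.084445).

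Among sex steroid receptors and conjugation enzymes, 2 of 5 rose and 1 fell with T3. Sult1e1, the estrogen sulfotransferase gene, rose from 0.385 to 1.02 RPKM in hypothyroid to 19.5 to 176 in hyperthyroid WT mice (log2 fold change 6.52 ± 0.60, limma adjusted p = 5.3897e-05). Esr1, an estrogen receptor gene, rose from 1.75 to 9.73 RPKM (2.37 ± 0.28, adjusted p = 0.00018745). Nr1i3, which encodes the receptor CAR, fell from 173 to 44.4 RPKM (-1.97 ± 0.15, adjusted p = 2.3422e-05). In L-NCOR1ΔID mice Nr1i3 was also lower than in hypothyroid WT, at 73.5 to 87.8 RPKM, with a log2 fold change of -1.07 ± 0.11 (limma, adjusted p = 0.0014454). Sult1e1 was 1.78, 19.8, 3.42 and 28.9 RPKM in the mutant, above every hypothyroid WT library, and was not called (3.37 ± 0.82, adjusted p = 0.054231).

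Of 8 oxidative dehydrogenases of steroids and retinoids related to Hsd17b6, 1 was called higher and 1 lower with T3. Rdh16, whose coding sequence was 70.9% identical to that of Hsd17b6, fell from 28.6 to 3.42 RPKM (-3.04 ± 0.21 as log2, adjusted p = 1.3356e-05 by limma). Dhrs9 was called higher in both comparisons, at levels of at most 1.26 RPKM. Rdh7, the most abundant of the group, was 552 RPKM in hypothyroid and 428 in hyperthyroid WT mice (-0.37 ± 0.09, adjusted p = 0.010991) and was not called. Of the 50-base stretches of Hsd17b6, 14.8% were shared with relatives of this group, among them Rdh16 and Rdh7.

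Because liver levels of Cyp17a1 and Hsd3b5 differ between the sexes of mice, lists of male- and female-biased liver genes were included. Of 11 other male-biased genes, 5 fell and 2 rose with T3. Cyp4a12b fell from 54.9 to 0.470 RPKM (-7.06 ± 0.56 as log2, adjusted p = 2.7915e-05 by limma), Cyp4a12a from 207 to 11.4 RPKM (-4.33 ± 0.32, adjusted p = 1.9637e-05) and Cyp2d9 from 679.8 to 136 RPKM (-2.32 ± 0.13, adjusted p = 5.8045e-06). Elovl3 rose from 10.7 to 91.9 RPKM (3.37 ± 0.43, adjusted p = 0.00028745) and Cyp7b1, an oxysterol hydroxylase gene, from 76.7 to 232 RPKM (1.71 ± 0.29, adjusted p = 0.0013632). Of 12 female-biased genes tested beside Cyp17a1, 5 rose and 1 fell. Cyp3a44 was 0.027 to 0.247 RPKM in hypothyroid and 15.7 to 93.8 in hyperthyroid WT mice (7.76 ± 0.52, adjusted p = 1.208e-05). Cyp3a16, a close relative, rose from 0.148 to 64.9 RPKM (7.72 ± 0.52, adjusted p = 1.2199e-05). Sult3a1 was 0.492 to 75.7 RPKM in hyperthyroid mice (6.22 ± 1.26, adjusted p = 0.0034182). In L-NCOR1ΔID mice no male-biased gene was called and 2 of 10 female-biased genes were, Cyp3a16 at levels of at most 0.656 RPKM and Slco1a4, from 15.5 to 42.6 RPKM (1.48 ± 0.19, adjusted p = 0.0037894).

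**Figure D4:**
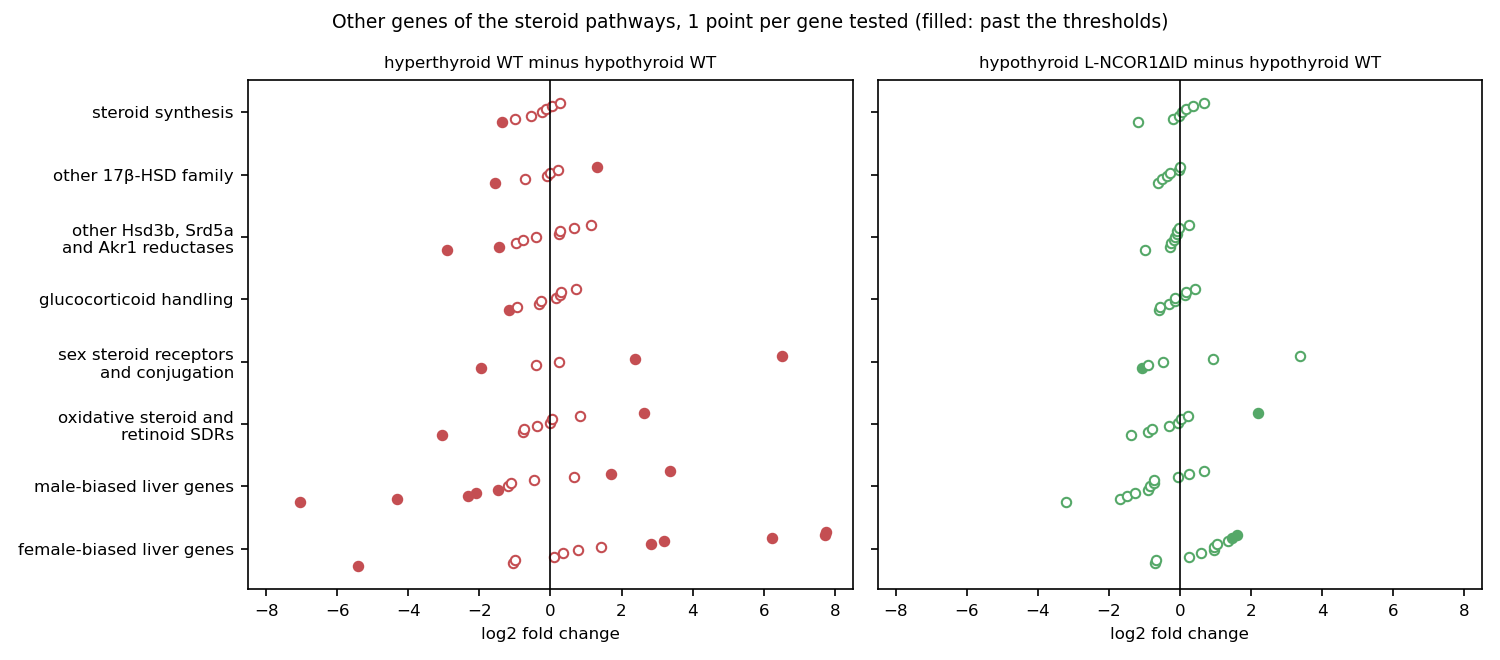
log2 fold change of each listed gene tested, the 10 enzymes left out, by list, for hyperthyroid against hypothyroid WT (left) and hypothyroid L-NCOR1ΔID against hypothyroid WT mice (right); filled points passed the thresholds. On the left 24 points are filled, in both directions, and those furthest from 0 are sex-biased genes and Sult1e1; on the right 4 are filled.

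Markers of other cells moved with T3 as well. The Kupffer cell markers Clec4f, Vsig4, Cd5l and Adgre1, 4 of 4 called higher, summed to 35.2 to 49.8 RPKM in hypothyroid, 108 to 169 in hyperthyroid WT and 41.8 to 85.9 in L-NCOR1ΔID mice. Of 5 pericentral hepatocyte markers, 4 were called lower (Cyp2e1, Cyp1a2, Oat and Slc1a2) and Glul higher, and their sum was 6106 to 7764 RPKM in hypothyroid and 1272 to 1603 in hyperthyroid WT mice. Of 4 hepatocyte markers Alb and Ttr were called lower with T3, at log2 fold changes of -1.16 and -1.55. Of 5 periportal and 4 stellate cell markers none was called, and 1 of 4 endothelial (Lyve1) and 1 of 4 cholangiocyte markers (Krt7) were called higher. The part of these markers' cells in the lower levels of Hsd11b1, Hsd17b13 and the Hsd3b genes was not tested.

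The genes most like each enzyme over the 12 libraries were sought among 10662 genes with a mean of at least 1 RPKM, by the Pearson correlation of log2(RPKM + 0.1), which the difference between the groups dominates. For Cyp17a1 it was As3mt (r = 0.991), an arsenic methyltransferase gene 34468 bp away on chromosome 19. As3mt rose with T3 from 7.49 to 41.8 RPKM (2.49 ± 0.19 as log2, adjusted p = 2.4703e-05 by limma) and was 16.7 RPKM in L-NCOR1ΔID mice, between the WT groups as Cyp17a1 was. For Hsd17b6 they were the cytochrome gene Cyp2c23 (0.993), Ces1f (0.992) and Nat8 (0.988), and for Hsd3b3 1810019D21Rik (0.985) and Cyp2c23 (0.983). Hsd17b2 was most like the anion transporter gene Slc22a7 (0.986), which was 238 RPKM in hyperthyroid WT, 12.2 in hypothyroid WT and 2.58 in L-NCOR1ΔID mice, the same order as Hsd17b2. Hsd17b13 was most like Syngr2 (0.993) and Cyp4f15 (0.978), Hsd11b1 like Car8 (0.982), and Akr1c6 and Hsd3b5 both like Slc35d2 (0.955 and 0.919). Srd5a1 (0.896 with Il12rb1) and Hsd3b2 (0.947 with Got2) had the lowest best values of the 10.

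Finally, the list of H3 acetylated regions was consulted, since acetylation of H3K9 and H3K27 marks active promoters and enhancers. It holds 37200 regions, with a median size of 2537 bp, that the authors merged over both marks in hypothyroid and hyperthyroid WT mice, with no signal values. It therefore shows where acetylation was found in at least 1 condition and not how it changed. The TSS lay in a region for all 10 enzymes when RefSeq starts were used where matched. With GENCODE M1 starts it was 9 of 10, because the annotated start of Hsd17b6 lay 1317 bp from the region. By the same GENCODE measure, 60.4% of 18604 genes and 98.8% of 3862 genes with a mean of at least 10 RPKM had a TSS in a region.

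The size of the region at the start varied widely. Hsd17b2 (chr8:120225846-120282929, plus strand) lay in the longest, of 43501 bp at chr8:120214558-120258058. Cyp17a1 (chr19:46741655-46747464, minus strand) was wholly within a region of 26870 bp, chr19:46730889-46757758. These are the 2 genes that were higher with T3, and a link between region size and response was not tested. The regions at the other 8 starts were 4457 bp (Hsd3b5) to 14926 bp (Hsd3b3) long. All were above the median of the list, which also counts regions away from any start. The sizes of regions at the starts of other genes were not compared. Within 100 kb of the GENCODE M1 starts were 5 (Hsd3b5) to 17 regions (Srd5a1), with 14 for Cyp17a1, beside a median of 9 over genes of at least 10 RPKM. From the RefSeq start, Hsd3b5 had 7.

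**Figure D5:**
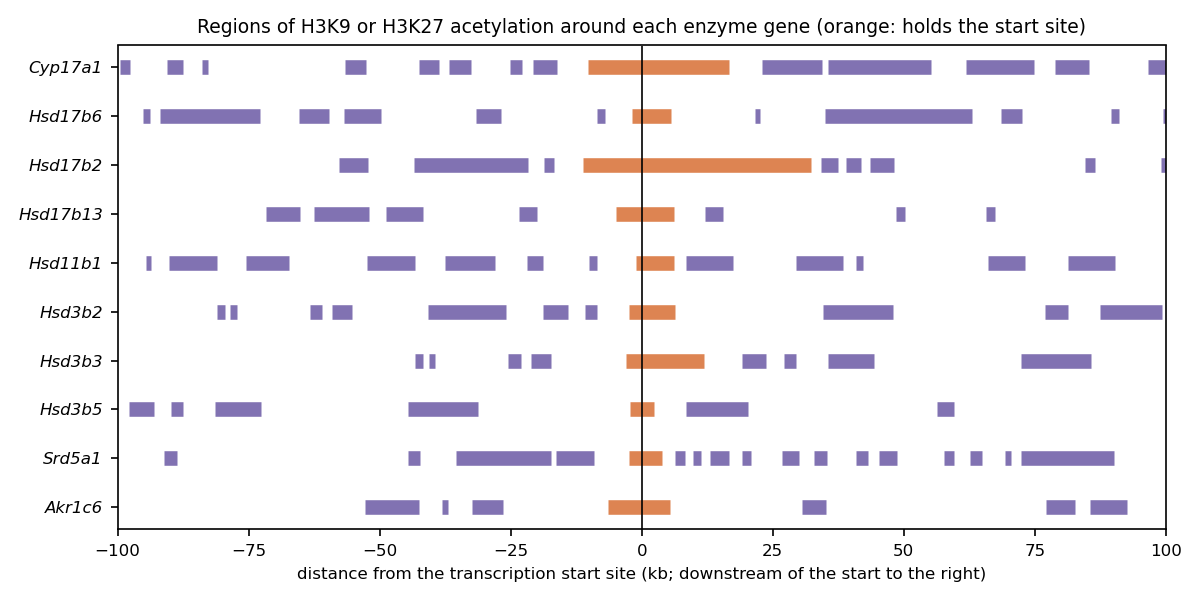
Regions of H3K9 or H3K27 acetylation within 100 kb of the TSS of each enzyme gene (distance in kb, downstream to the right); orange regions hold the TSS and violet ones do not. The orange region is longest for Hsd17b2 (43501 bp) and Cyp17a1 (26870 bp) and shortest for Hsd3b5 (4457 bp).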

How the data were processed

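Poly(A) RNA of 12 mouse livers was sequenced on Illumina instruments of 2 models (HiSeq or NovaSeq). Per the labels and the study's methods, the authors aligned reads with STAR to mm9 and used HOMER for RPKM over each transcript, scaled to uniquely aligned reads. Whether counting used strand is not given in the sources used here. The deposited RPKM table holds 31370 transcripts. The 1 without a gene name (at most 0.0007854% of summed RPKM) was left out, and the first listed transcript of each of 23813 genes was used. The authors also deposited 37200 merged H3K9Ac and H3K27Ac regions as positions with no signal. No library was dropped or imputed.

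The deposited RPKM were tested as log2(RPKM + 0.1) with limma 3.58.1 in R 4.3.3 (variance trend, Benjamini-Hochberg adjustment). The authors used DESeq2 for their own tests. Genes needed 0.1 RPKM in 4 of the libraries compared. Fold changes are on the log2(RPKM + 0.1) scale and understate those of low genes. At the depths found, 0.1 RPKM is 2.13 to 4.27 reads per kilobase. Depth was estimated as the read total that gave the most low values as whole reads (tolerance 0.03 reads), and is approximate. The fitting code was tested on simulated data.

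The 10 enzymes and all lists were chosen with earlier results of these data known. Beside the 10, the named genes were those called with at least 1 RPKM in the higher group, up to 3 per list and direction, the 3 most alike per enzyme, and markers. Por, Nr3c1, H6pd, Hsd11b2, Rdh7, Srd5a2, Akr1c12, Akr1c13, the Hsd3b genes near 0 and genes under 1 RPKM were named after their values were seen. The same holds for Cyp2a4, Gstp1, Tsc22d3, Fkbp5 and Tat. Some listed genes enter the counts but are not reported here by name. Promoters were matched exactly to mm9 with Biopython 1.88. ChIP-seq signal of single samples was not analysed here. Alternatives were another pseudocount, filter, scaling, threshold, transcript or fit, a replicate block, and leaving out each library.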

Additional observations from a re-analysis of the deposited data

Results flagged for a closer look

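In 30 genes and 3 groups of 4 libraries, 90 sets of values in all, the highest or lowest library was compared with the rest by its gap over the range (Dixon's test, 95% limit). In 6 sets 1 library stood apart, and chance gives about 1 in 20. Among the 10 enzymes this was Hsd3b2 in L-NCOR1ΔID replicate 4, at 21.7 RPKM beside 13.5 to 14.9 in the other 3, a level within the range of hypothyroid WT. Esr1 was 5.71 RPKM in L-NCOR1ΔID replicate 2 beside 2.61 to 3.10, and Slco1a4 was 53.5 RPKM in the same library beside 38.3 to 40.02. Akr1c14 was 135 RPKM in hyperthyroid WT replicate 2 beside 159.9 to 163. Akr1c19 was 77.5 RPKM in hypothyroid WT replicate 1 beside 56.6 to 59.3, and Cyp4a12a was 217 RPKM in hypothyroid WT replicate 2 beside 203 to 205.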

How the results depend on the processing

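Of the 7 enzymes called with T3, 6 kept their call in each of 18 alternatives and Hsd3b2 lost it with no filter on low values (log2 fold change -1.57, with 23813 genes tested). Hsd3b5 gained a call in 5 alternatives, and no enzyme changed direction with T3. Scaling by the median of gene ratios moved the median of all genes from 0.23 to 0.01 and the calls from 1155 higher and 484 lower to 746 and 679. With a pseudocount of 1, 575 were higher and 319 lower. For L-NCOR1ΔID mice no enzyme was called in any of 19 alternatives. Over all genes 100 higher and 75 lower became 21 and 22 with no filter, 63 and 57 without the variance trend, 139 and 118 in 1 fit of all libraries, and 344 and 257 at an adjusted p under 0.05. Leaving out 1 library gave 36 to 110 higher and 28 to 77 lower. The 4 pathway genes called in the mutant became 1 with no filter, 2 with a mean of at least 1 RPKM, and 1 to 4 with 1 library left out. They were 2 without hypothyroid WT replicate 3 and 1 without L-NCOR1ΔID replicate 1 or 3. The difference of Srd5a1 in the mutant was -0.032 without hypothyroid WT replicate 1, and ranged from -0.12 (without L-NCOR1ΔID replicate 3) to 0.24 over the libraries left out. Without L-NCOR1ΔID replicates 1 and 2, an alternative chosen after seeing the data, the differences were 0.20 for Hsd17b2, 0.019 for Hsd3b3 and 0.047 for Hsd3b5, and 2 pathway genes were called. T3-treated WT minus mutant turned negative for Akr1c6 with the other scaling (-0.12) and without L-NCOR1ΔID replicate 2 (-0.066), and for Hsd3b5 without that replicate (-0.65). With 1 library left out, it reached 0.28 for Akr1c6 and 1.44 for Hsd3b5, both without L-NCOR1ΔID replicate 4. The cause of these changes was not tested.

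The replicate numbers were not taken to pair the samples, since same-numbered libraries had correlations of -0.12 to 0.17. With the replicate number as a block, 1055 genes were called higher and 451 lower for T3, 20 and 25 for L-NCOR1ΔID, and 1 pathway gene for the mutant. Not every library correlated best with its own number.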

Other observations

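The nearest annotated genes within 100 kb of the 10 enzymes, chosen for listing after the data were seen, comprised 19 other genes, of which 16 were tested. With T3, 2 were called higher and 2 lower, where 8.28% and 3.47% of all genes tested were. None was called in L-NCOR1ΔID mice, beside 0.725% higher and 0.544% lower over all genes. Beside As3mt and Hsd17b11, these were Plcg2 near Hsd17b2, from 0.278 to 0.732 RPKM (1.15 ± 0.17 as log2 fold change, adjusted p = 0.00066343 by limma), and Lamb3 near Hsd11b1, from 1.11 to 0.501 RPKM (-1.04 ± 0.24, adjusted p = 0.0060599). Each of the 4 had the sign of the enzyme beside it. The other 12 tested were not called, and some of them had the sign of their enzyme and some the opposite. Shared regulation of neighbours was not tested.

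Hsd3b7, a gene of bile acid synthesis in the 3β-dehydrogenase family, was higher with T3 where Hsd3b2, Hsd3b3 and Hsd3b5 were lower. It was 112 to 162 RPKM in hypothyroid and 196 to 240.3 in hyperthyroid WT mice, without overlap (0.67 ± 0.13, limma adjusted p = 0.0026029), and was below the limit of fold change.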
